A study of Homo sapiens with 6 samples.

Results

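The genes described here act at cell-cell junctions on YAP and TAZ, the transcriptional coactivators of the Hippo pathway. They are the angiomotins AMOT, AMOTL1 and AMOTL2, the phosphatase PTPN14, the FERM domain protein FRMD6 and the Ajuba family LIM proteins AJUBA, WTIP and LIMD1. They were chosen by name, as junction-linked regulators of YAP and TAZ, some of them feedback targets, and with earlier results of these data known. They make up 8 of the 23459 genes in the table. All 8 had a row in it, and 7 passed the low-count filter, which left out AMOT.

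The study dealt with joint target genes of JUN and YAP/TAZ, and these libraries show what MCF10A cells express after depletion of YAP and TAZ. MCF10A is an untransformed human mammary epithelial line, grown here with horse serum, insulin, hydrocortisone, cholera toxin and EGF. The descriptions mark all 6 libraries as WT. All cells received 20 nM siRNA with Lipofectamine RNAiMAX, either a control siRNA (siCtrl, 3 libraries) or siRNA against YAP and TAZ together (siYAP/TAZ, 3 libraries), and no time after transfection is given in the sources used here. RNA was read from the 3′ ends of transcripts. Because both factors were depleted in the same cells, their separate contributions cannot be told apart, and nothing in the labels says whether libraries of a group came from separate cultures, so p-values measure only the spread between these libraries.

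The title and the description field differ for 4 of the 6 libraries. For 2 of them the group differs: the description, which was used here, names siCtrl replicate 2 and siYAP/TAZ replicate 2, while the title and genotype entry of each names the opposite group. For the other 2, siCtrl replicate 3 and siYAP/TAZ replicate 1, the title gives the same group with replicate number 2, so the replicate numbers used here rest on the description alone. Library totals ran from 3175149 to 4317286 counts. On the first principal component, with 48.4% of the variance, siCtrl replicate 2 lay at 7.17, near the siYAP/TAZ libraries at 9.85 to 33.9, whereas the other siCtrl libraries lay at -42.8 and -35.1. On the second it lay apart at -38.1, against 23.3, -3.87 and 14.7 for siYAP/TAZ and 10.4 and -6.38 for the other siCtrl libraries. Its YAP1 level was 203.7 CPM, between the 188.7 and 210.3 CPM of the other siCtrl libraries. All 9 mammary epithelial markers examined exceeded the floor of 3 counts in every library, and their summed level was 1728 to 2161 CPM under siCtrl against 1492 to 1718 CPM under siYAP/TAZ. CPM is the count relative to the library total, scaled up to a common size after TMM normalisation. KRT5 was the largest part of the sum, with means of 912 CPM under siCtrl and 661 CPM under siYAP/TAZ. Means also fell for EPCAM (128 to 91.1 CPM), KRT17 (243 to 169 CPM), ITGA6 (335 to 257 CPM), KRT18 (84.7 to 73.0 CPM) and KRT14 (37.9 to 32.0 CPM). They rose for TP63 (49.0 to 73.7 CPM), ITGB4 (108 to 137 CPM) and CDH1 (119 to 141 CPM). Markers of other cell types were low, with summed levels of 3.26 to 10.2 CPM for leukocytes, 2.01 to 11.2 CPM for endothelium, 0.992 to 3.81 CPM for fibroblasts and 3.45 to 6.48 CPM for hormone-receptor luminal cells over all 6 libraries. PECAM1, an endothelial adhesion molecule, had 6, 4 and 4 counts under siCtrl against 14, 29 and 18 under siYAP/TAZ, while CDH5, which defines endothelium, stayed at or under 2 counts, and the part of these counts in the results was not tested.

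In the Hippo pathway, the kinases LATS1 and LATS2 phosphorylate YAP and TAZ and keep them out of the nucleus, where they would otherwise bind TEAD factors and switch on target genes. Angiomotins are scaffolds of tight junctions and actin that bind YAP and TAZ directly, hold them at the junction or in the cytoplasm and also promote LATS activity. PTPN14 binds YAP in a similar way, and FRMD6, also called Willin, resembles the fly protein Expanded, an upstream activator of the pathway. Ajuba family proteins act in the other direction, since they bind LATS kinases at adherens junctions under tension and restrain them. AMOTL2 is itself a widely used YAP/TAZ target gene, which makes it part of a feedback loop.

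Promoter sequences are given for the member genes that hold the core TEAD motif, because the perturbed factors reach DNA through TEAD. Windows of 300 bases, 250 before and 50 after an annotated start site, were taken from RefSeq on GRCh38.p14, and 7 of the 8 genes matched, with 9 windows. LIMD1 had no entry. The motif GGAATG, searched on both strands so that it reads CATTCC on the reverse one, was found in 14.0% of 35116 promoters of the same length. It occurred in 1 of the 2 windows of AMOTL2, 1 of the 2 windows of AJUBA and the single windows of PTPN14 and WTIP. The AMOT, AMOTL1 and FRMD6 windows held none, and the AP-1 motif TGANTCA, found in 7.71% of all promoters, was in none of the 9. In the sequences below, each read 5′ to 3′ along the strand of its gene, capitals mark the TEAD motif. The AMOTL2 window is chr3:134374398-134374697 on the minus strand, the AJUBA window chr14:22976793-22977092 on the minus strand, the WTIP window chr19:34481508-34481807 on the plus strand and the PTPN14 window chr1:214551553-214551852 on the minus strand.
AMOTL2: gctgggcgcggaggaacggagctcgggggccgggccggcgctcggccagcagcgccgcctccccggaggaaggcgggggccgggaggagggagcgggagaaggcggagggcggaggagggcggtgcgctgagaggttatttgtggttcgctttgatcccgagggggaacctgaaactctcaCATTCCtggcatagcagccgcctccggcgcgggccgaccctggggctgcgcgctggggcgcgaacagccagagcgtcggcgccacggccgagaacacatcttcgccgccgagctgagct
AJUBA: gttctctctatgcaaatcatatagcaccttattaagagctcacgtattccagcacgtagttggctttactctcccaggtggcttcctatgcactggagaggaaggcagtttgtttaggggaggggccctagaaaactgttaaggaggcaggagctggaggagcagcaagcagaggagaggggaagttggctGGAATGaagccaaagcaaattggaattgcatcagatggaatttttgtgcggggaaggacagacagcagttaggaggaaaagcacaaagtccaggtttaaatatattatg
WTIP: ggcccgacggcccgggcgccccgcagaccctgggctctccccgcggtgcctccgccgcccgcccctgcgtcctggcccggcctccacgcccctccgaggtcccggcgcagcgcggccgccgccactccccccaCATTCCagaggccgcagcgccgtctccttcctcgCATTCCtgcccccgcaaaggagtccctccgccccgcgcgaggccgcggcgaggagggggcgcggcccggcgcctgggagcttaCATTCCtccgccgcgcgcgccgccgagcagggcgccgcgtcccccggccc
PTPN14: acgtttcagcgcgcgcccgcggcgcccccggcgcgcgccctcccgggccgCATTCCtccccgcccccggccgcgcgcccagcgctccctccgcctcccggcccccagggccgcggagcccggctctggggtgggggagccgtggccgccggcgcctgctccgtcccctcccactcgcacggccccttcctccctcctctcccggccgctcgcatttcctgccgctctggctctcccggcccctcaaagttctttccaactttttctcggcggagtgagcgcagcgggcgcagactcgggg

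The match lies 69 bases before the start site in AMOTL2, 59 before it in AJUBA and 200 before it in PTPN14. WTIP held 3 copies, 117 and 83 bases before the start site and at the site itself, and 0.128% of all promoters hold 3 or more. A match describes the letters only, and no binding was measured in these libraries. Sites outside the windows were not searched. The study shows protein binding at AMOTL2 in MCF10A cells by CUT&RUN, with AP-1 motifs marked.

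The targeted genes serve as a check of the labels. YAP1 fell from 200.9 ± 11.1 to 115 ± 3.25 CPM and WWTR1, which encodes TAZ, from 106 ± 4.02 to 65.8 ± 5.44 CPM (SD, n = 3), leaving 57.5% and 61.8% of the control level. Their adjusted p-values in edgeR were 0.0138 and 0.0311, and all siYAP/TAZ libraries lay below all siCtrl libraries for both. With the groups of the titles the log2 fold changes shrank to -0.26 and -0.22. Noncoding genes on the opposite strand overlap exons of YAP1 and WWTR1 in the annotation, and the use of strand in counting is not given. For WWTR1, the counts of the overlapping WWTR1-AS1 were at most 0.643% of its own, while the genes that overlap YAP1 had no counts of their own to compare. YAP1 missed the threshold without siCtrl replicate 3 (0.0988 in edgeR), siYAP/TAZ replicate 2 (0.0606) or siYAP/TAZ replicate 3 (0.112), and WWTR1 missed it when any library other than siCtrl replicate 2 was left out, with adjusted p-values up to 0.176 in edgeR.

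Depletion of YAP and TAZ lowered 1 angiomotin and 1 Ajuba family gene among the 7 genes tested. AMOTL2 fell to 29.1% and AJUBA to 45.5% of the control level, no member rose past the threshold, and the other 5 did not pass. Of all 12510 genes tested, 1.22% were called lower and 0.743% higher at an adjusted p-value under 0.05. WTIP passed the low-count filter through the siCtrl libraries, where it was higher, and is left out of the following counts. Of the other 6 genes, 5 had log2 fold changes below 0, against 50.1% of all genes, and their median was -0.39, against -0.00093 over all genes. The groups did not overlap for 3 of them, AMOTL1, AMOTL2 and AJUBA, each lower under siYAP/TAZ, where 11.1% of all genes were set apart in that direction. An unadjusted p-value under 0.05 with a lower level was reached by these 3 and FRMD6, against 9.27% of all genes. The counts describe a list that holds known YAP/TAZ targets.

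**Figure D1:**
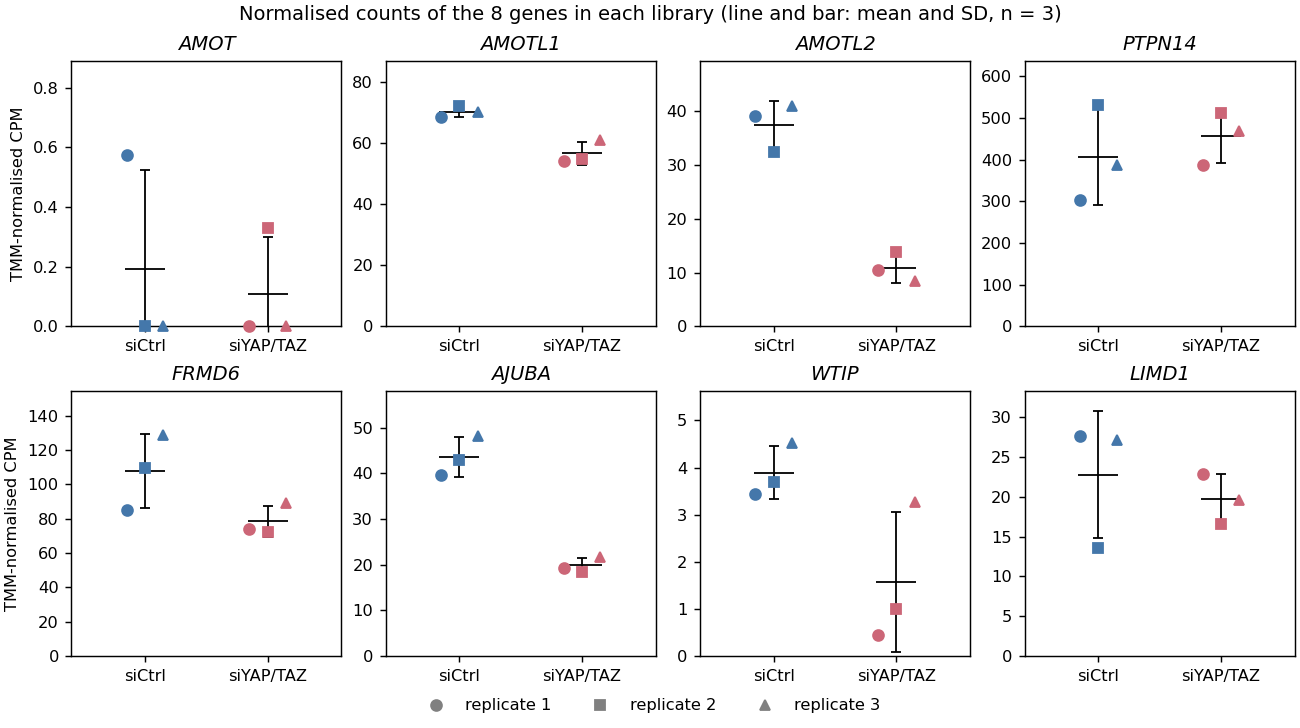
TMM-normalised CPM of each of the 8 genes (vertical axis, its own linear scale from 0 in each panel) in the 3 siCtrl (blue) and 3 siYAP/TAZ (red) libraries, with mean and SD as line and bar and the replicate number as symbol. The groups separate fully for AMOTL1, AMOTL2 and AJUBA, each lower under siYAP/TAZ, as for 11.1% of all genes. They overlap for PTPN14, FRMD6 and LIMD1. WTIP values do not overlap either, but WTIP passed the low-count filter through its siCtrl libraries. AMOT has at most 2 counts in a library.

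Among the angiomotins, AMOTL2 fell, AMOTL1 did not pass the threshold and AMOT was under the floor in every library. AMOTL2 (Entrez 51421; GRCh37 chr3:134074189-134094321, minus strand), which links junctional cadherin complexes to actin, had 136, 105 and 163 counts under siCtrl against 46, 42 and 31 under siYAP/TAZ. In CPM these are 39.1, 32.4 and 40.96 against 10.4, 13.9 and 8.43, so every control library was well above every depleted one. Its log2 fold change was -1.79 (SE 0.22, 95% interval -2.29 to -1.29), which is 0.289 of the control level with an interval of 0.204 to 0.409, at an adjusted p-value of 0.00879 in edgeR. By p-value AMOTL2 ranked 21 of the 12510 genes, and only 0.208% of them had a more negative fold change. A pseudogene, RPL39P5, overlaps the 3′ exon of AMOTL2 on the same strand in the annotation, so a share of its reads could belong to either.

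AMOTL1 (Entrez 154810; GRCh37 chr11:94439597-94609913, plus strand), a paralog that also sits at tight junctions, had 68.6, 72.2 and 70.1 CPM under siCtrl against 54.2, 54.9 and 60.9 under siYAP/TAZ. All depleted libraries were below all control libraries, and the control values spread by only 2.55% of their mean. The means were 70.3 ± 1.79 and 56.7 ± 3.71 CPM (SD, n = 3), a log2 fold change of -0.31 (SE 0.13, 95% interval -0.60 to -0.021). It did not pass the threshold, with an adjusted p-value of 0.255 in edgeR and 0.148 with the replicate number as a block. A noncoding gene on the opposite strand overlaps AMOTL1 exons in the annotation, so a share of reads could belong to either. AMOT (Entrez 154796; GRCh37 chrX:112017731-112084059, minus strand), the founding member of the family, had 2, 0 and 0 counts under siCtrl against 0, 1 and 0 under siYAP/TAZ. Every library was under the floor of 3 counts, which corresponds to 0.680 to 0.992 CPM, so a difference in AMOT was not detectable at this depth.

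The unequal change of the paralogs was examined within each library, where no scaling between libraries enters. The log2 ratio of AMOTL2 to AMOTL1 counts was -0.81, -1.15 and -0.77 under siCtrl against -2.36, -1.97 and -2.83 under siYAP/TAZ. All depleted libraries had a lower ratio than all control libraries, and the mean ratio fell by 1.48 on the log2 scale. An exact two-sided permutation test gave p = 0.1, the smallest that 3 libraries against 3 can reach, and 0.2 after adjustment over the 4 paralog pairs tested.

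PTPN14 and FRMD6 did not pass the threshold. PTPN14 (Entrez 5784; GRCh37 chr1:214522043-214725792, minus strand) had 302, 529.8 and 387 CPM under siCtrl against 387, 511 and 468 under siYAP/TAZ. The groups overlapped, with both the lowest and the highest value in control libraries. Its log2 fold change of 0.17 (SE 0.21, 95% interval -0.30 to 0.63) had an adjusted p-value of 0.728 in edgeR, and the interval spans 0.811 to 1.55 of the control level. Without siCtrl replicate 1 the value was -0.0087, and without siCtrl replicate 2 it was 0.41, so its sign turned on 1 control library. In the annotation, a noncoding gene on the same strand and a pseudogene on the opposite strand overlap PTPN14 exons, and their reads were not separated.

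FRMD6 (Entrez 122786; GRCh37 chr14:51955818-52197445, plus strand) had 85.3, 109.5 and 129 CPM under siCtrl against 74.3, 72.1 and 88.9 under siYAP/TAZ. Only siYAP/TAZ replicate 3 overlapped the control range, and it exceeded only siCtrl replicate 1. The means were 108 ± 21.7 and 78.4 ± 9.16 CPM (SD, n = 3), a log2 fold change of -0.46 (SE 0.17, 95% interval -0.85 to -0.071) with an adjusted p-value of 0.215 in edgeR. With the replicate block the adjusted p-value was 0.0515, still past no threshold. FRMD6-AS2, a noncoding gene on the opposite strand whose span overlaps that of FRMD6 but whose exons do not, had 105, 128 and 177 counts under siCtrl against 121, 90 and 114 under siYAP/TAZ, which is 34.6% to 41.3% of the FRMD6 count of the same library. Whether strand was used in counting, and whether reads were counted over exons or whole genes, is not given in the sources used here, so it is uncertain whether the genes share reads.

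In the Ajuba family, AJUBA passed the threshold and was lower in every depleted library, whereas WTIP and LIMD1 did not pass. AJUBA (Entrez 84962; GRCh37 chr14:23440386-23451760, minus strand) had 138, 139 and 192 counts under siCtrl against 85, 56 and 80 under siYAP/TAZ. This corresponds to 39.6, 42.9 and 48.2 CPM against 19.3, 18.5 and 21.8 CPM, with every depleted library under every control library and a narrow spread in both groups. The log2 fold change was -1.13 (SE 0.17, 95% interval -1.51 to -0.76), or 0.456 of the control level with an interval of 0.352 to 0.590, at an adjusted p-value of 0.0138 in edgeR. AJUBA ranked 53 by p-value, and 1.37% of genes had a more negative fold change. An annotated readthrough gene shares exons with AJUBA on the same strand, and its reads were not separated.

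WTIP (Entrez 126374; GRCh37 chr19:34972663-35003209, plus strand) was sparse, with 12, 12 and 18 counts under siCtrl against 2, 3 and 12 under siYAP/TAZ. Depleted replicates 1 and 2 were at or under the floor, whereas replicate 3 nearly reached the control range of 3.45 to 4.52 CPM with 3.26 CPM. Its log2 fold change was -1.32 (SE 0.58, 95% interval -2.63 to -0.014), with an adjusted p-value of 0.278 in edgeR. The low-count filter of 2.82 CPM was exceeded in 3 siCtrl libraries but only 1 siYAP/TAZ library, so its lower values are a description of a gene kept for its control level. The estimate was -2.46 when siYAP/TAZ replicate 3 was left out and -0.82 when replicate 1 was, and edgeR gave adjusted p-values of 0.175 and 0.484.

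LIMD1 (Entrez 8994; GRCh37 chr3:45596886-45727833, plus strand) had 27.6, 13.6 and 27.1 CPM under siCtrl against 22.9, 16.5 and 19.6 under siYAP/TAZ. The depleted libraries lay inside the control range, and siCtrl replicate 2, one of the libraries with conflicting labels, was the lowest of all 6. The log2 fold change was -0.21 (SE 0.28, 95% interval -0.84 to 0.42) with an adjusted p-value of 0.746 in edgeR, and its size depended on the libraries used. Leaving out siCtrl replicate 1, 2 or 3 gave -0.055, -0.46 (adjusted p-value 0.164, edgeR) and -0.064, and leaving out siYAP/TAZ replicate 1 or 2 gave -0.34 and -0.10. LIMD1-AS1, whose exons overlap those of LIMD1 on the opposite strand, had counts equal to 26% to 38.9% of LIMD1 counts, so the LIMD1 values are uncertain to that extent.

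**Figure D2:**
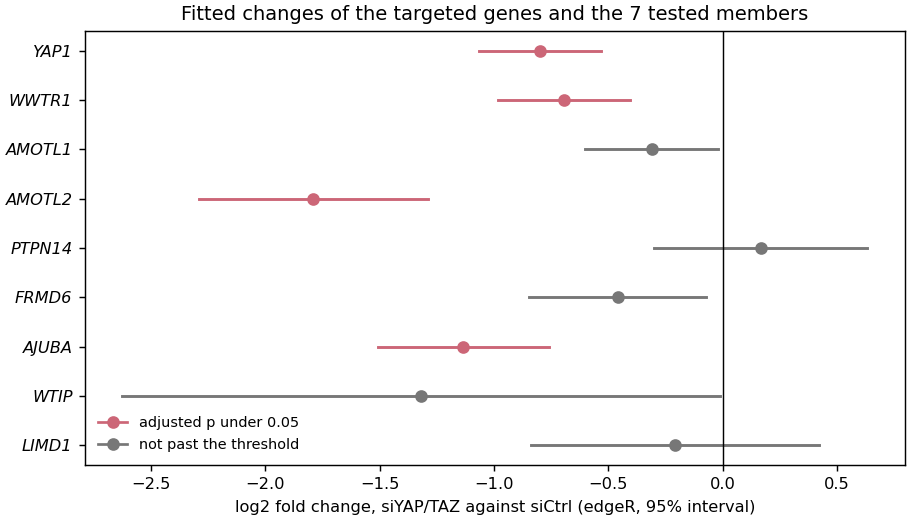
Log2 fold changes of YAP1, WWTR1 and the 7 member genes tested, siYAP/TAZ against siCtrl (horizontal axis), with 95% intervals from edgeR as bars and genes with an adjusted p-value under 0.05 in red. AMOTL2 at -1.79 and AJUBA at -1.13 have intervals that end below -0.76, while those of PTPN14 and LIMD1 span 0.

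Within libraries, the log2 ratio of AJUBA to LIMD1 counts was 0.52, 1.65 and 0.83 under siCtrl against -0.25, 0.16 and 0.15 under siYAP/TAZ. All control ratios exceeded all depleted ones, and the mean ratio fell by 0.98 on the log2 scale, with p = 0.1 in the exact permutation test and 0.2 after adjustment. The difference was -0.65 without siCtrl replicate 2, which had the highest ratio, and 0.014 with the groups of the titles. The other pairs involve WTIP, which is sparse and passed the low-count filter through its siCtrl libraries. Its ratios partly reflect that choice, so no conclusion is drawn from their tests. Both pairs also entered the adjustment over 4 pairs. The ratio of AJUBA to WTIP changed by 0.49 (p = 0.7, exact permutation test; adjusted 0.7) and that of LIMD1 to WTIP by 1.47 (p = 0.3, exact permutation test; adjusted 0.4), and both pairs overlapped between the groups. Without siYAP/TAZ replicate 1 these differences were -0.093 and 0.75, and without siYAP/TAZ replicate 3 they were 1.11 and 2.15.

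**Figure D3:**
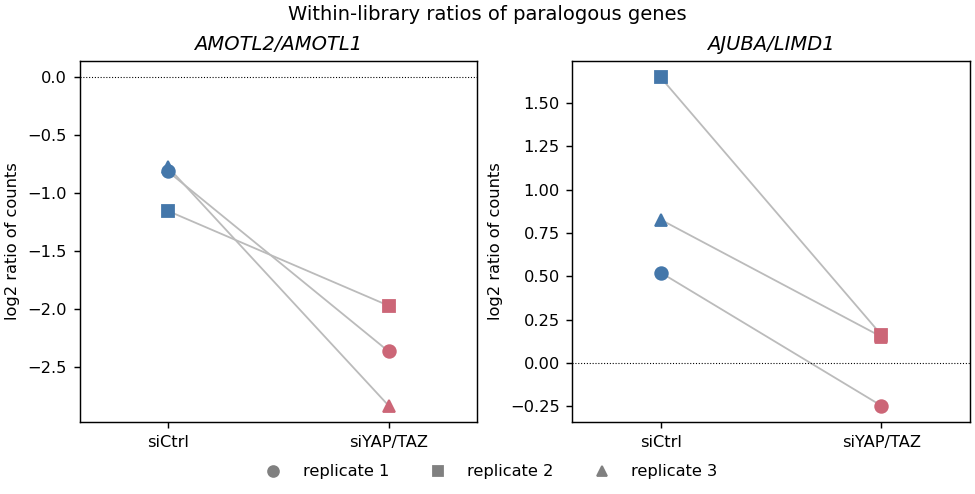
Log2 ratio of counts of AMOTL2 to AMOTL1 (left) and of AJUBA to LIMD1 (right) in each library, with grey lines joining libraries of the same replicate number in the description field. Each siYAP/TAZ ratio is below each siCtrl ratio in both panels, and each line falls.

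The calls of AMOTL2 and AJUBA depended on which libraries entered the fit, whereas their estimates moved little. With 1 library left out, the log2 fold change of AMOTL2 lay between -1.98 and -1.63 and that of AJUBA between -1.20 and -1.05. AMOTL2 missed the threshold when siCtrl replicate 3 (adjusted p-value 0.0703 in edgeR) or siYAP/TAZ replicate 3 (0.0675) was left out. AJUBA missed it without siCtrl replicate 3 (0.0978 in edgeR), siYAP/TAZ replicate 2 (0.0606) or siYAP/TAZ replicate 3 (0.0797). With the groups of the titles the values were -0.90 for AMOTL2 and -0.36 for AJUBA, and neither passed (adjusted p-values 0.898 and 0.905 in edgeR). Both passed without the pair of libraries whose labels conflict, and with the replicate block their adjusted p-values were 0.00124 and 0.00195 in edgeR, in a fit that called 5.44% of all genes lower.

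**Figure D4:**
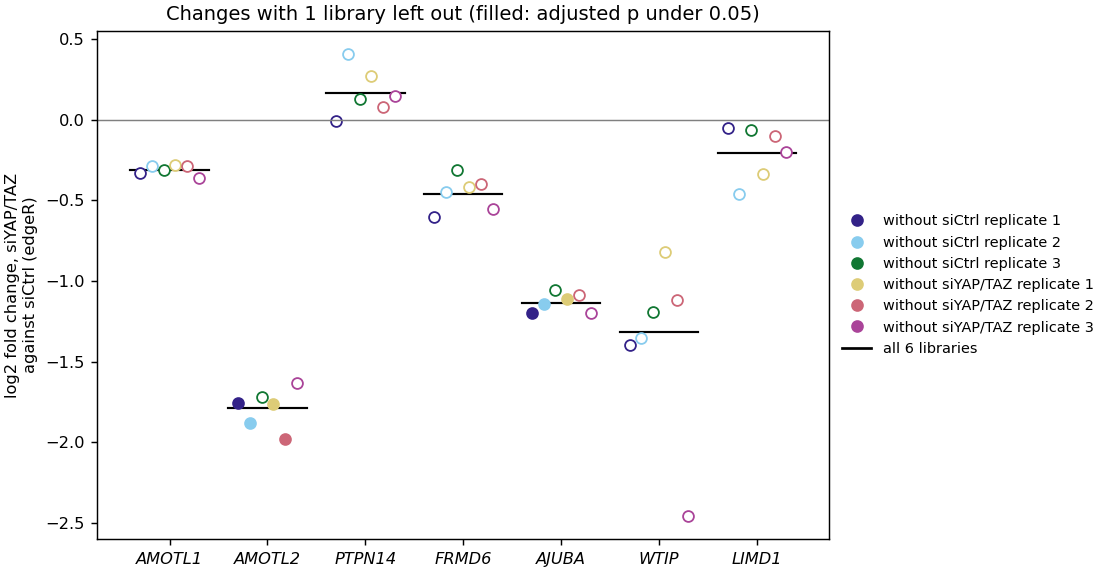
Log2 fold change of the 7 tested genes (vertical axis, edgeR) with each of the 6 libraries left out in turn (coloured points), filled where the adjusted p-value is under 0.05, and with all libraries (black line). Points of AMOTL2 and AJUBA stay within -1.98 to -1.05, while those of WTIP range from -2.46 to -0.82.

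Patterns over the 6 libraries were compared with that of AMOTL2, the member with the smallest p-value. The measure was the root mean square difference of log2 CPM values after each gene was centred on its own mean, over 9786 genes with at least 10 CPM. The nearest genes were MIR4435-2HG (0.218), a long noncoding RNA, PROSER2-AS1 (0.241), PROSER2 (0.245), a gene listed as Entrez 348738 without a matched symbol (0.269) and EPGN (0.292), which encodes the EGF receptor ligand epigen. EPGN had 533, 431 and 579 counts under siCtrl against 227, 105 and 117 under siYAP/TAZ, with no overlap. PROSER2 and PROSER2-AS1 overlap on opposite strands, and the counts of the antisense gene were 85.2% to 97.1% of those of PROSER2, so they may share reads. MIR4435-2HG has exons that overlap BCL2L11 on the opposite strand. BCL2L11 moved in the other direction, with 59, 82 and 72 counts under siCtrl against 213, 137 and 252 under siYAP/TAZ. Whether they share reads was not tested.

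AJUBA was the member most like AMOTL2, at a distance of 0.429, with 0.634% of the compared genes nearer. FRMD6 (0.741), WTIP (0.759), AMOTL1 (0.771), LIMD1 (0.886) and PTPN14 (1.04) followed, and for PTPN14 76.9% of genes were nearer. These distances describe 6 libraries and include the difference between the groups itself.

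Other genes of the junction and of the Hippo pathway were counted from a list of 56, all in the table, of which 54 were tested. WWC1 was lower, 0 were higher, and 53 did not pass, beside 1.22% of all genes called lower. FRMD1 and DCHS1 were too sparse to be tested. CRB3 and TAOK2 did not exceed the low-count filter in every library and are left out of the following counts. Of the other 52 genes, 40 had a log2 fold change below 0, against 50.1% of all genes, with a median of -0.15. The groups were set apart with lower values under siYAP/TAZ for 12, against 11.1% of all genes, and with higher values for 0, against 11%. An unadjusted p-value under 0.05 was reached with lower values by 5, WWC1, WWC3, FJX1, VCL and STK3, against 9.27% of all genes, and with higher values by 0, against 8.4%. Over all 54 genes the number below 0 was 40 with all libraries. It was 43 when siCtrl replicate 1 was left out and 35 when siCtrl replicate 2 was, and in the latter fit 9 of the 54 turned sign.

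**Figure D5:**
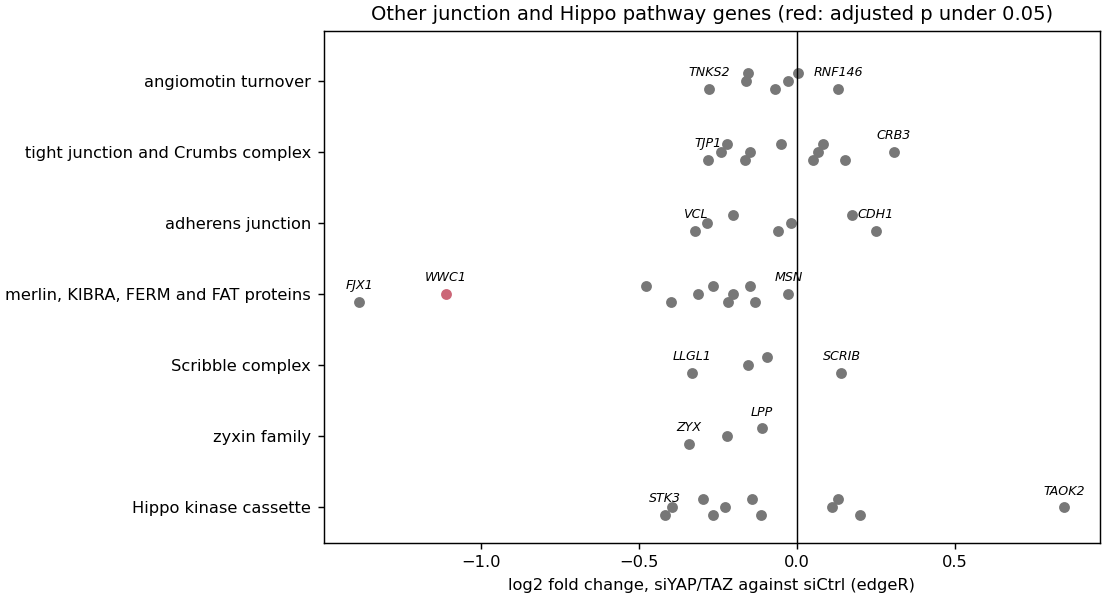
Log2 fold changes (horizontal axis, edgeR, siYAP/TAZ against siCtrl) of the 54 other junction and Hippo pathway genes tested, in 7 subgroups (rows), with the highest and lowest gene of each named and genes with an adjusted p-value under 0.05 in red. WWC1 at -1.11 is the only red point, FJX1 lies lower at -1.39 without passing, and TAOK2 at 0.85 is the highest.

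WWC1 encodes KIBRA, a scaffold that joins merlin in activating LATS. It had 406, 512 and 544 counts under siCtrl against 283, 236 and 178 under siYAP/TAZ, and all depleted libraries were below all control libraries. In CPM the means were 137 ± 20.7 and 63.5 ± 14.8 (SD, n = 3), a log2 fold change of -1.11 (SE 0.19), at an adjusted p-value of 0.0231 in edgeR. WWC1 missed the threshold without siCtrl replicate 3 (0.119 in edgeR), siYAP/TAZ replicate 1 (0.0597) or siYAP/TAZ replicate 3 (0.125). FJX1, the human counterpart of the fly kinase Four-jointed that acts on FAT and Dachsous cadherins, had 112, 44 and 94 counts under siCtrl against 45, 26 and 28 under siYAP/TAZ. The groups did not overlap in CPM, with means of 23.1 ± 9.30 and 8.80 ± 1.30 (SD, n = 3), but the adjusted p-value was 0.0630 in edgeR for a log2 fold change of -1.39. FJX1 passed under 5 of 15 alternatives. Among them were the replicate block (0.00770 in edgeR), DESeq2 (0.00589) and the fit without siCtrl replicate 2 (0.00278, edgeR). These 3 fits called 1263, 587 and 1579 genes in all, against 245 in the main fit. FJX1 missed the threshold when any other library was left out, with adjusted p-values up to 0.254 in edgeR, and by title (0.898).

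All 11 tested genes of the merlin, KIBRA, FERM and FAT subgroup had log2 fold changes below 0, from -1.39 for FJX1 to -0.028 for MSN, which encodes the actin linker moesin, and MSN changed sign under 4 alternatives. In the Hippo kinase cassette, 7 of 11 genes were below 0 and none passed. STK3, which encodes the kinase MST2 that activates LATS, was lowest at -0.42 (adjusted p-value 0.215 in edgeR). A noncoding gene on the opposite strand overlaps STK3 exons in the annotation. TAOK2, a kinase upstream of MST kinases, was highest at 0.85 with 10, 8 and 7 counts under siCtrl against 19, 15 and 13 under siYAP/TAZ (adjusted p-value 0.273 in edgeR), and it passed the low-count filter with 3 siYAP/TAZ libraries but only 1 siCtrl library over it.

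No gene passed among the enzymes of angiomotin turnover, the tight junction and Crumbs genes, the adherens junction genes, the Scribble complex or the zyxin family. Angiomotin turnover by tankyrases and ubiquitin enzymes comprised 7 tested genes, from -0.28 for the tankyrase TNKS2 to 0.13 for RNF146, the ubiquitin ligase that acts on tankyrase substrates. The 11 tight junction and Crumbs genes ran from -0.28 for TJP1, the scaffold ZO-1, to 0.31 for CRB3, a polarity protein with 5 to 18 counts a library. Adherens junction genes (7) ran from -0.32 for VCL, which encodes vinculin (adjusted p-value 0.213 in edgeR), to 0.25 for CDH1, which encodes E-cadherin. The 4 Scribble complex genes lay between -0.33 for LLGL1 and 0.14 for SCRIB, and the 3 zyxin family genes, relatives of AJUBA among the LIM proteins, between -0.34 for ZYX and -0.11 for LPP. Genes on the opposite strand overlap the exons of CRB3, VCL, LLGL1, ZYX, CDH1 and LPP, so these values carry the same doubt over strand. Counts of the overlapping gene were 159% to 241% of those of LLGL1 (FLII) and 38.9% to 280% of those of CRB3 (DENND1C). They were 10.3% to 26.4% of those of ZYX (EPHA1) and 13.5% to 19.7% of those of VCL (AP3M1). For LPP, the counts of the overlapping LPP-AS2 were at most 0.579% of its own. Whether reads were shared was not tested. Several of these end values moved by over 1.5 times when 1 library was left out. Without siCtrl replicate 1, TNKS2 was at -0.12 and LPP at -0.18. Without siCtrl replicate 2, CDH1 was at 0.40, SCRIB at 0.26, ZYX at -0.18 and LPP at 0.030. Without siCtrl replicate 3, CDH1 was at 0.15, SCRIB at 0.067 and LPP at -0.17. Without siYAP/TAZ replicate 1, TJP1 was at -0.46, SCRIB at 0.26 and ZYX at -0.13. Without siYAP/TAZ replicate 2, TJP1 was at -0.16, LLGL1 at -0.15, SCRIB at 0.0021 and ZYX at -0.56. LLGL1 was at -0.52 without siYAP/TAZ replicate 3, and CRB3 ranged from 0.030 to 0.66 over the 6 libraries left out in turn.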

How the data were processed

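The 6 libraries were made with the QuantSeq 3′ mRNA-Seq FWD kit from RNA of MCF10A cells. The authors deposited 1 table of raw counts per Entrez gene, not normalised. The submitters' processing notes name cutadapt 4.2, Bowtie2 2.3.5.1 and hg19, and the study's methods count overlaps of reads with genes in R. The annotation and the use of strand are not given in the sources used here. Symbols came from RefSeq, with 23308 of 23459 IDs matched (99.7% of counts). Gene coordinates are from GENCODE 44 lifted to GRCh37, which has the coordinates of hg19, and promoters are from RefSeq on GRCh38.p14. The table had 0 unnamed rows and 0 unused sample columns.

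Groups and replicate numbers came from the description field. Differences between groups were assessed on the counts in edgeR 4.0.16 under R 4.3.3 (glmQLFTest, quasi-likelihood) after filterByExpr and TMM, without covariates. P-values were adjusted by Benjamini-Hochberg over 12510 genes, at a threshold of 0.05. The scripts were tested on simulated data. Errors are SD over 3 libraries. Intervals are at 95%, and the floor for a count of 0 is 3 counts. The floor covers counting error only, as reads carried no molecular identifiers. Paralog ratios used a pseudocount of 0.5 and exact permutation tests. No 2 libraries were identical, and chi-square per degree of freedom within groups was 5.37 to 17.4 over genes. Each library was counted as 1 replicate, although these values do not show whether libraries came from separate cultures.

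After subtraction of group means, same-numbered siCtrl and siYAP/TAZ libraries had correlations across genes of 0.41 (replicate 1), 0.34 (replicate 2) and 0.13 (replicate 3). Each exceeded 0.1, so a fit with the numbers of the description field as a block is given as an alternative. The main fit, which gave the calls above, had no block, because the study's methods name none. With the block 1263 genes passed, against 245 in the main fit. Correlations between libraries of different numbers were not computed, so a pairing was not settled. The titles number 4 of the libraries differently, and no fit used their numbers. The correlations are a description, because genes are not replicates.

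The members, gene lists and tests were chosen with earlier results of these data known. Named genes are the 8 members, YAP1, WWTR1, list genes past the threshold or at either end of their subgroup, and the 5 genes nearest to AMOTL2 in pattern. WWC3, FRMD1, DCHS1, PECAM1, CDH5 and overlapping genes were named after their values were seen. The fits were repeated with DESeq2 1.42.0, with RLE factors, with library size as the sole scaling, without a filter, with a minimum mean of 50 counts, with robust dispersion, with the replicate block, with each library left out, with groups by title, and with both libraries with conflicting labels left out, with a pseudocount of 1 for ratios.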

Additional observations from a re-analysis of the deposited data

How the results depend on the processing

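The count of member genes past the threshold was 2 lower and 0 higher under every alternative except grouping by title, with 0 (0 also at an unadjusted p-value under 0.05), and leaving out 1 library, where it lay between 0 and 2. In edgeR, 2 library choices gave 0. Without siCtrl replicate 3, 2 of 7 members were lower at an unadjusted p-value under 0.05, beside 746 of all 12683 genes. Without siYAP/TAZ replicate 3 it was 5 of 7 members, beside 707 of all 12665 genes. Those 5 include WTIP, which passed the low-count filter through its siCtrl libraries. Without siYAP/TAZ replicate 2 the count was 1, AMOTL2. AMOTL2 passed under 12 of 15 alternatives and AJUBA under 11 of 15, and no other member passed under any. For the 56 listed genes the count was 2 with DESeq2, with no low-count filter, with the replicate block and without both libraries with conflicting labels, 0 by title (2 lower at an unadjusted p-value) and 0 to 3 with 1 library left out. Over all genes, 245 passed in edgeR, 587 with DESeq2, 556 with no filter, 1263 with the replicate block, 1183 without the conflicting libraries, 0 by title (242 lower and 222 higher at an unadjusted p-value) and 16 to 1579 with 1 library left out, lowest without siCtrl replicate 3 and highest without siCtrl replicate 2. The cause was not tested. With the replicate block, FJX1 alone changed its call among the named genes.

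Among the named genes, signs turned for PTPN14 without siCtrl replicate 1 (-0.0087, the lowest of a range up to 0.41 with 1 library left out), for CRB3 (-0.16), LLGL1 (0.19), LPP (0.088) and MSN (0.11) by title, for LPP (0.030) and MSN (7.98e-05) without siCtrl replicate 2, and for MSN without siYAP/TAZ replicate 2 (0.041) and without both conflicting libraries (0.066). With 1 library left out, MSN ranged from -0.10 to 0.041 and LPP from -0.18 to 0.030. None of these was past the threshold. The within-library ratio of AJUBA to LIMD1 turned to 0.014 by title and lay between -1.22 and -0.65 with 1 library left out. That of AJUBA to WTIP lay between -0.093, without siYAP/TAZ replicate 1, and 1.11, and that of LIMD1 to WTIP between 0.75 and 2.15, with 0.12 by title. In the ratios with the replicate block, sign flips over 3 pairs cannot go below p = 0.25 (exact permutation), the value for both AMOTL2 to AMOTL1 and AJUBA to LIMD1. WTIP was not tested at a mean of at least 50 counts. No scaling moved the median of all genes by over 0.1 on the log2 scale. Depth limits AMOT and WTIP, with 2 and 18 counts at most in a library.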
